A study of Rattus norvegicus with 6 samples.

Results

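rno-miR-320-3p, rno-miR-484 and rno-miR-877 (rno for rat, left off from here on) are 3 miRNAs whose hairpins are made without Drosha, the nuclear enzyme that cuts most miRNA precursors from longer transcripts. They were taken by their mature names from the deposited raw count table, which lists 1191 mature IDs, 699 of them with miRBase names and 492 marked as predicted. Each of the 3 names has 1 row there. The series compared rat hearts 0.5 h after release of a ligature on the left anterior descending coronary artery that had been tied for 0.5 h (ischemia-reperfusion, I-R, 3 hearts) with normal hearts (3 hearts). All 6 hearts are labelled wild type. The labels give no strain, age or sex and do not say which part of the heart was taken. The normal hearts are not described as operated on, so surgery and ischemia cannot be told apart.

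Small RNA between the adaptors was sequenced, and each count is a tag read. The total over all mature IDs was 1376947 to 2814802 counts in I-R libraries and 6963312 to 8429988 counts in normal libraries, so every I-R library was shallower than every normal library. Predicted entries took 5.46% to 13.65% of the counts in I-R libraries and 1.09% to 1.29% in normal libraries. The smallest count listed anywhere is 2, so rarer tags are missing and weigh more in a shallow library. Of the markers of heart muscle, 6 of 6 were listed in all 6 libraries and held 21.9% to 31.02% of the counts in I-R libraries and 22.4% to 40.3% in normal libraries. Red cell markers held 0.00771% to 0.0428% in I-R libraries and 0.004795% to 0.0146% in normal libraries, with miR-144-5p blank in at least 1 library. Leukocyte markers, 4 of 4 listed in all libraries, held 0.0538% to 0.0581% in I-R libraries and 0.0525% to 0.06302% in normal libraries. Endothelial markers, 2 of 2, held 5.73% to 7.13% in I-R libraries and 5.45% to 10.6% in normal libraries. The liver marker miR-122-5p was at 0.00814% to 0.0972% in I-R libraries and 0.00273% to 0.00753% in normal libraries, and was the only one of these lists whose groups did not overlap. The part of depth, of predicted entries and of these cells in the results below was not tested.

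A canonical miRNA passes through Drosha in the nucleus and Dicer in the cytoplasm. The miR-320 and miR-484 hairpins are instead transcribed directly as short capped RNAs, as shown in mouse cells, leave the nucleus by exportin 1 and are then cut by Dicer. Because the cap stays on the 5′ side, the 3′ arm is the one that is loaded into Argonaute. miR-877 is a mirtron: its hairpin is a whole short intron, freed by splicing and debranching. In heart muscle cells of rodents, miR-320 has been linked to the small heat shock protein Hsp20 and miR-484 to the mitochondrial fission protein Fis1.

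The mature sequences in the deposited table are shown first, 5′ to 3′, because they define what was counted. Capitals mark the seed, bases 2 to 8, which pairs with targets.
miR-320-3p: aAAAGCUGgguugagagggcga
miR-484: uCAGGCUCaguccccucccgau
miR-877: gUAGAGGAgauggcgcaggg
The 3 seeds differ from each other. No other entry of the table carries the seed of miR-320-3p or miR-877. That of miR-484 recurs in miR-344a-5p and miR-6334, both without a count in any library. G and C make up 54.55% of miR-320-3p, 63.64% of miR-484 and 65.0% of miR-877, against a median of 47.8% over the 699 miRBase-named sequences. Of these, 29.9%, 11.9% and 8.87% reach the value of miR-320-3p, miR-484 and miR-877.

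The hairpins of miR-484 and miR-877 in RefSeq (rat build GRCr8) show how the capped RNA and the mirtron are laid out, with the mature miRNA in capitals.
Mir484, chr10:1394905-1394981, minus strand: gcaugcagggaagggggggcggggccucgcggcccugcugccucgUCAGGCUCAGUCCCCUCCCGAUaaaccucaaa
Mir877, chr20:2816284-2816368, plus strand: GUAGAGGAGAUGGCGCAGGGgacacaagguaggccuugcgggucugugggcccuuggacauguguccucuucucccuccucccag
Mature miR-484 (chr10:1394915-1394936) takes bases 46 to 67 of its 77-base hairpin, on the 3′ side. Mature miR-877 (chr20:2816284-2816303) takes bases 1 to 20 of its 85-base hairpin, starting at the first base. The miR-877 hairpin opens with GU and ends with AG, the letters at the ends of an intron. It is 1 of 4 such hairpins among the 419 in RefSeq (0.955%), with Mir1224 (a mirtron), Mir3595 and Mir678. The RefSeq annotation places Mir877 inside Abcf1, a gene for a translation factor of the ABC family. Mir320a, the gene of miR-320, is on chromosome 15 next to Polr3d, a subunit of RNA polymerase III, and the nearest protein-coding gene to Mir484 is Marf1.

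The 3 miRNAs were far apart in abundance. In CPM, a count scaled to library size with TMM factors, miR-320-3p averaged 252 CPM over the 6 libraries, miR-484 6.35 CPM and miR-877 1.47 CPM. They ranked 94, 239 and 322 among the 502 miRBase-named miRNAs with a count. The neighbours of miR-320-3p in that order, miR-195-5p (mean 263 CPM) and miR-425-5p (mean 250.3 CPM), spanned 191 to 334 CPM and 179 to 329.5 CPM over the libraries and overlapped with it. miR-484 stood between miR-499-3p (6.43 CPM) and miR-200c-3p (6.26 CPM), and miR-877 between miR-100-3p (1.49 CPM) and miR-1298 (1.44 CPM). The rank of miR-320-3p lay between 89 and 99 in every library. miR-484 ranked 298, 325 and 320 in I-R replicates 1 to 3, and 258, 249 and 182 in normal replicates 1 to 3.

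**Figure D1:**
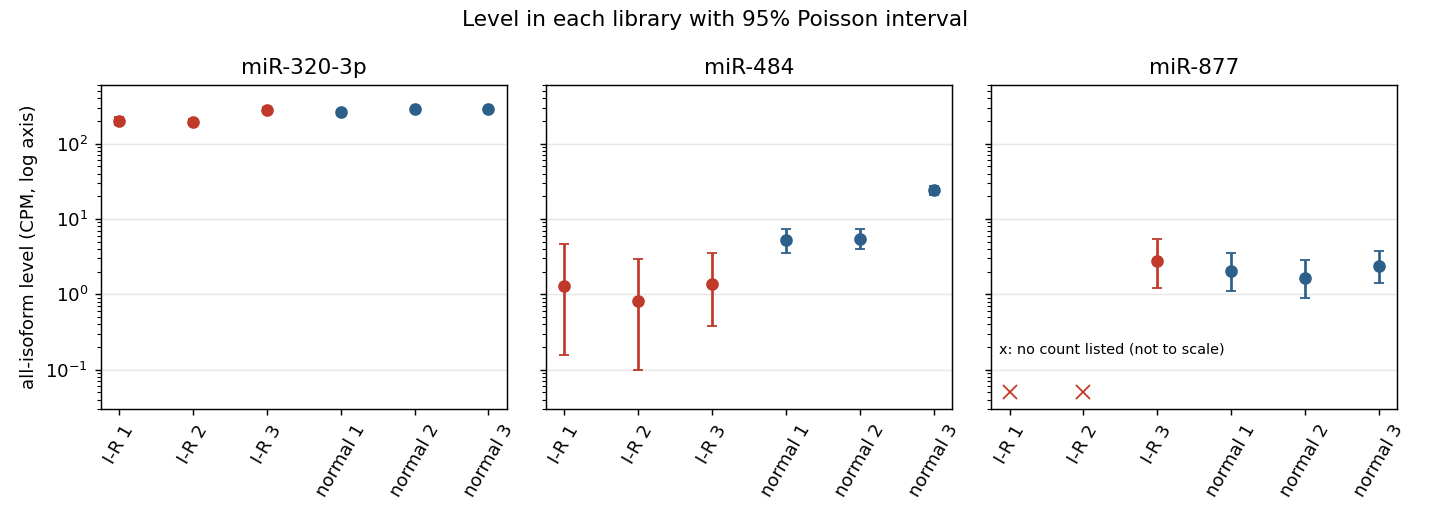
All-isoform level of miR-320-3p, miR-484 and miR-877 in CPM on a log axis, 1 point per library, I-R libraries in red and normal libraries in blue, with 95% Poisson intervals for counting error and crosses for libraries without a listed count. miR-320-3p lies between 195 and 290.2 CPM in all 6 libraries, while miR-484 is at 0.822 to 1.38 CPM in I-R libraries and 5.20 to 23.9 CPM in normal libraries.

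Between I-R and normal hearts the 3 differed in what could be measured. miR-484 fell in I-R hearts, on few counts and with a call that did not hold under every setting. miR-320-3p did not pass the test and lay close to the median of all miRBase-named miRNAs, and miR-877 had too few counts to be tested.

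miR-320-3p, the abundant capped miRNA, had 309, 474 and 816 all-isoform counts in I-R replicates 1 to 3, and 1649, 2261 and 2197 counts in normal replicates 1 to 3. Scaled, these were 199.99, 195 and 282 CPM in I-R libraries and 259.7, 288 and 290.2 CPM in normal libraries. I-R replicates 1 and 2 lay below every normal library and I-R replicate 3 lay among them, so the groups overlapped. The means were 225.5 ± 48.8 CPM in I-R hearts and 279 ± 16.99 CPM in normal hearts (SD, n = 3 each). The log2 fold change was -0.31 ± 0.19 (SE) and did not pass edgeR's quasi-likelihood test across the 524 entries tested (Benjamini-Hochberg adjusted p = 0.244). The median log2 fold change was -0.40 over the 305 miRBase-named miRNAs tested and -0.17 over all 524, so miR-320-3p stood 0.094 above the miRBase-named median. Under 6 scalings (TMM, RLE, upper quartile, library totals, TMM factors from the miRBase-named entries, and those entries fitted alone) this distance stayed between 0.079 and 0.09998. The fold change itself followed the scaling. With upper-quartile factors, which set the median of miRBase-named miRNAs at -0.89, miR-320-3p passed as lower (log2 fold change -0.79, edgeR adjusted p = 0.0321). With factors taken from the miRBase-named entries its sign was positive (0.021, edgeR adjusted p = 0.943). In the authors' deposited table its fold was 0.963 with a false discovery rate of 0.866. In bulk tissue, fewer cells of a type and less RNA per cell cannot be told apart.

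The other arm, miR-320-5p, is in the table without a count in any of the 6 libraries, while miR-320-3p had 7706 counts in total.

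miR-484, the second capped miRNA, had 2, 2 and 4 all-isoform counts in I-R replicates 1 to 3, and 33, 43 and 181 counts in normal replicates 1 to 3. In CPM, it was at 1.29, 0.822 and 1.38 in I-R libraries and at 5.20, 5.48 and 23.9 in normal libraries. The counts of I-R replicates 1 and 2 are at the smallest value the table lists. The groups did not overlap, and normal replicate 3 stood above the other 2 normal libraries. A gap of this kind, with every I-R library below every normal library, was seen for 38.7% of the 305 miRBase-named miRNAs tested. The means were 1.17 ± 0.301 CPM in I-R hearts and 11.5 ± 10.7 CPM in normal hearts (SD, n = 3 each). The log2 fold change of -3.28 ± 0.85 (SE) passed edgeR's test as lower (adjusted p = 0.0189). Of the miRBase-named miRNAs tested, 13.8% passed as lower and 0.984% as higher, and over all entries tested 9.35% passed as lower. Only miR-320-3p and miR-484 of the 3 miRNAs were tested, and miR-484 came over the filter through its normal libraries, so its call is not a count over all 3.

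The size of this fall rests on few counts. Summed over libraries, miR-484 had 8 counts in I-R libraries and 257 in normal libraries, a ratio of rates of 0.0986 with an exact 95% interval of 0.0421 to 0.197 for counting error. Without normal replicate 3 the ratio was 0.217 (0.0906 to 0.451), and the log2 fold change was -2.24 (edgeR adjusted p = 0.0338). At the lowest normal level, 5.20 CPM, the I-R libraries would hold 8.03, 12.6 and 15.0 counts, against the 2, 2 and 4 listed. These expected counts, like the intervals, make no allowance for tags missing below the smallest listed count of 2. How much of the fall comes from such missing tags was not tested. The upper ends of the Poisson intervals in I-R replicates 1 to 3 were 4.68, 2.97 and 3.54 CPM, and the lower ends in normal replicates 1 to 3 were 3.58, 3.96 and 20.6 CPM, so the interval of I-R replicate 1 met those of normal replicates 1 and 2. Without I-R replicate 1, 2 or 3 the log2 fold change was -3.25, -3.09 and -3.33, close to its value in all libraries, but with 2 I-R libraries left the call was lost (edgeR adjusted p = 0.0557, 0.0703 and 0.0526). It was also lost with limma-voom (0.112), when miRBase-named miRNAs were fitted alone (0.0725) and with the authors' normalized values (limma, 0.0551). In the authors' deposited table the fold was 0.567, computed after 10 was added to each group mean, with a false discovery rate of 0.419.

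The fold changes of miRNAs of low abundance are given for comparison. Among 83 miRBase-named miRNAs with a mean of 3 to 12 CPM, the median log2 fold change without a filter was -0.59 and the middle of the distribution ran from -0.88 to -0.11, and miR-484 at -3.37 was the lowest. Of these 83, 6 were blank in at least 1 I-R library and 0 in a normal library. In the class above, 12 to 100 CPM, the median over another 83 miRNAs was -0.44. In the class below, 1 to 3 CPM, which holds the I-R level of miR-484 (1.17 CPM), the median over 55 miRNAs was -0.76, and 38 of them were blank in at least 1 I-R library, against 7 in a normal library. The mean that places miR-484 in the 3 to 12 CPM class is carried by normal replicate 3. Relative to the miRBase-named median, miR-484 was at -2.89 to -2.86 under the 6 scalings.

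**Figure D2:**
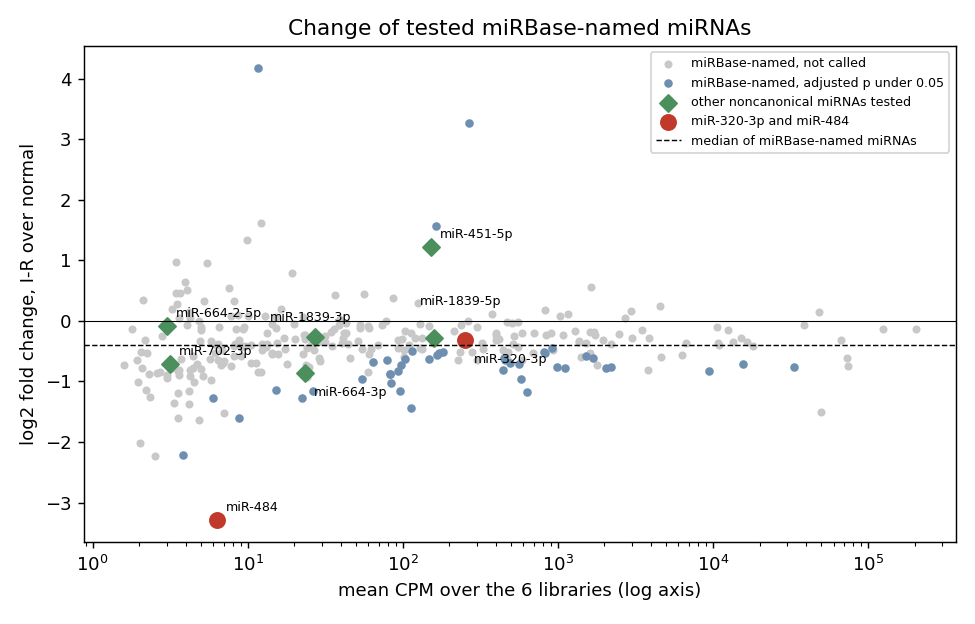
Log2 fold change (I-R over normal) against mean CPM (log axis) for the miRBase-named miRNAs tested, with miR-320-3p and miR-484 in red, other noncanonical miRNAs as green diamonds and the miRBase-named median of -0.40 as a dashed line. miR-484 lies at -3.28, having passed the filter on low counts through its normal libraries, and miR-320-3p at -0.31 lies close to the dashed line.

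miR-877, the mirtron, had no count listed in I-R replicates 1 and 2 and 8 counts in I-R replicate 3, against 13, 13 and 18 counts in normal replicates 1 to 3. In CPM this was 2.76 in I-R replicate 3 and 2.05, 1.66 and 2.38 in normal replicates 1 to 3, so the 1 I-R library with counts was above every normal library. The row did not pass the filter on low counts and was not tested. A blank is not a measured 0 in a table that starts at 2 counts, and at the lowest normal level (1.66 CPM) I-R replicates 1 and 2 would hold 2.56 and 4.03 counts. The ratio of summed rates, I-R over normal, was 0.576 with an exact 95% interval of 0.234 to 1.24 for counting error. A difference was not detected, and the interval holds both a fall and no change. All the I-R counts came from I-R replicate 3, and the interval leaves out variation between hearts. It therefore cannot set miR-877 apart from miR-484. With all normal libraries the intervals of miR-877 (0.234 to 1.24) and miR-484 (0.0421 to 0.197) did not overlap. Without normal replicate 3 the intervals of miR-877 (0.249 to 1.45) and miR-484 (0.0906 to 0.451) overlapped. With no filter, the log2 fold change was -0.99 (edgeR adjusted p = 0.5302). Without I-R replicate 3 the row entered the test and passed (edgeR adjusted p = 0.0372), with no count left in the I-R libraries; without I-R replicate 1 or 2 it entered and did not pass (0.817 and 0.823).

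Ratios of 2 of these miRNAs within a library need no scaling factor. They still depend on depth where a count is near the smallest one listed, 2. miR-484 had 2, 2 and 4 counts in I-R replicates 1 to 3. For every count of miR-484 there were 154.5, 237 and 204 counts of miR-320-3p in I-R replicates 1 to 3, and 49.97, 52.6 and 12.1 in normal replicates 1 to 3. Every I-R library was thus above every normal library. The mean log2 ratio was 7.61 ± 0.31 in I-R libraries and 4.99 ± 1.20 in normal libraries (SD, n = 3 each), a difference of 2.62 (two-sided exact permutation test, p = 0.1; adjusted over the 3 pairs, 0.3). With 3 against 3 libraries no smaller p is possible, so this test cannot pass 0.05. The exact and the most abundant sequence of miR-484 are the same, and I-R replicate 1, with 2 counts, was the only I-R library with either. I-R replicates 2 and 3 therefore gave no ratio in these counts. From this 1 I-R library, the difference was 1.21 with the exact sequence of miR-320-3p and -0.52 with its most abundant sequence. Ratios from 1 I-R library cannot decide the direction. The pairs with miR-877 could be formed in I-R replicate 3 and the 3 normal libraries only. miR-320-3p exceeded miR-877 by 102 times in I-R replicate 3 and by 127, 174 and 122 times in normal replicates 1 to 3 (difference in log2 ratio -0.45; exact permutation p = 0.5, adjusted p = 0.5). miR-484 was at 0.5 times miR-877 in I-R replicate 3 and at 2.54, 3.31 and 10.1 times in normal replicates 1 to 3 (difference -3.13; exact permutation p = 0.25, adjusted p = 0.375). With 1 library against 3, p cannot go below 0.25.

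The table also names the most abundant sequence of each row, which shows where the ends of these miRNAs fell. Capitals mark the bases beyond the listed mature end.
miR-320-3p: aaaagcuggguugagagggcgaAU
miR-877: guagaggagauggcgcagggGACA
miR-484: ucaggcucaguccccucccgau
In the raw counts miR-320-3p was thus longer by 2 bases and miR-877 by 4, both at the 3′ end, while the leading form of miR-484 was the mature sequence. For miR-877 the authors' normalized sheet names another leading form, guagaggagauggcgcagggga, which is longer than the mature sequence by 2 bases, so its leading end differs between the deposited sheets. The 4 added bases of miR-877 are those that follow in its RefSeq hairpin. Of 527 miRBase-named miRNAs with a most abundant sequence, 35.9% led with the mature sequence, 7.97% with a form at least 2 bases longer at that end and 0.949% with one at least 4 bases longer. For miR-877 the exact mature sequence was blank in all 6 libraries, and the 24-base form had 0 of 8 counts in I-R replicate 3, and 8 of 13, 3 of 13 and 8 of 18 counts in normal replicates 1 to 3. Of the miR-484 counts, 2 of 2, 0 of 2 and 0 of 4 were the mature sequence in I-R replicates 1 to 3, and 13 of 33, 6 of 43 and 60 of 181 in normal replicates 1 to 3. The mean share of the mature sequence of miR-484 was 33.3% in I-R libraries and 28.8% in normal libraries (exact permutation p = 1.0), and without I-R replicate 1 the difference turned to -28.8 percentage points.

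The forms of miR-320-3p could be counted more closely. The exact mature sequence made up 26.2% of its counts in I-R replicate 1 (95% Wilson interval 21.6% to 31.4%), 14.3% in I-R replicate 2 and 17.3% in I-R replicate 3, against 12.8%, 13.98% and 16.98% in normal replicates 1 to 3. The form with 2 added bases made up 12.6% (9.37% to 16.8%), 20.7% and 23.5% in I-R replicates 1 to 3, against 26.1%, 21.7% and 21.9% in normal replicates 1 to 3. All further forms held 59.2% to 65.0% in I-R libraries and 61.1% to 64.3% in normal libraries. I-R replicate 1 therefore had the highest share of the shorter form and the lowest share of the longer one, with intervals apart from those of every normal library. The other 2 I-R libraries lay among or near the normal ones. The mean share of the exact sequence was 19.3% ± 6.18 in I-R libraries and 14.6% ± 2.16 in normal libraries (SD, n = 3 each). The difference of 4.70 percentage points (exact permutation p = 0.2; 0.6 after adjustment over the 3 miRNAs) was 1.23 without I-R replicate 1. The mean share of the longer form was 18.9% ± 5.66 in I-R libraries and 23.3% ± 2.49 in normal libraries (exact permutation p = 0.4). Among 70 miRBase-named miRNAs with at least 100 counts in every library and a leading form other than the mature sequence, 24.3% had their highest exact share in I-R replicate 1. Of the 70, 3 (4.29%) also had their lowest share of the leading form there. miR-320-3p itself is among the 70 and among these 3. The median exact share of these 70 was 6.82% in I-R replicate 1 and 5.83% to 6.93% in the other libraries. In counts of the exact sequence alone the log2 fold change of miR-320-3p was 0.30 (edgeR adjusted p = 0.580), and in counts of the longer form -0.49 (0.344).

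**Figure D3:**
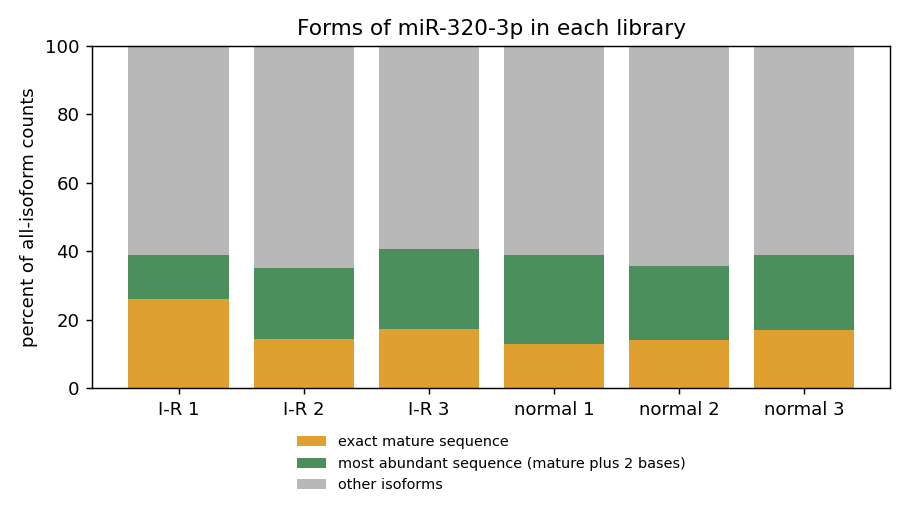
Share of the all-isoform counts of miR-320-3p taken by the exact mature sequence, the form with 2 added bases and all other forms, in percent, 1 bar per library with I-R libraries on the left. The exact share is 26.2% in I-R replicate 1 and 12.8% to 17.3% in the other 5 libraries.

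Other miRNAs that skip Drosha or Dicer were read beside these from a list of 11. Of them, 6 were tested, and 0 passed edgeR's test as higher and 0 as lower, with 0 at an unadjusted p under 0.05 and 0 past DESeq2 or limma-voom (adjusted p = 0.161 to 0.906 in edgeR, against 14.8% of miRBase-named miRNAs called in either direction). Their median log2 fold change was -0.28, against -0.40 over all miRBase-named miRNAs tested. Of the 305 miRBase-named miRNAs tested, 77 had an unadjusted edgeR p under 0.05. DESeq2 called 56 miRBase-named miRNAs and limma-voom 41. Of the 6, 5 had a negative sign; with factors from the miRBase-named entries, miR-1839-5p (0.061), miR-1839-3p (0.081) and miR-664-2-5p (0.20) turned positive. With upper-quartile factors 2 of them passed as lower, miR-1839-5p (-0.79, edgeR adjusted p = 0.0198) and miR-664-3p (-1.33, 0.0284). Under the same factors 148 of the 305 miRBase-named miRNAs tested passed in either direction. Without I-R replicate 3, miR-3102 entered the test and passed (edgeR adjusted p = 0.0415), with no count left in I-R libraries.

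Among the mirtrons, miR-702-3p was at 0, 1.23 and 5.53 CPM in I-R replicates 1 to 3 and 4.25, 4.46 and 3.43 CPM in normal replicates 1 to 3, so its groups overlapped. It was listed with 3 and 16 counts in I-R replicates 2 and 3. miR-3102 had 0, 0 and 5 counts in I-R libraries and 16, 26 and 11 counts in normal libraries, and was not tested. Like miR-877, both mirtrons were blank in I-R replicate 1, the shallowest library, and had counts in I-R replicate 3, the deepest I-R library. Blanks were not particular to mirtrons. At 1 to 3 CPM, 38 of 55 miRBase-named miRNAs were blank in at least 1 I-R library, and at 3 to 12 CPM, 6 of 83. The part of depth in these blanks was not tested. miR-1224 and the other arm miR-702-5p had no listed count, nor had miR-664-1-5p. miR-451-3p, the other arm of miR-451, had no listed count in I-R libraries and 8, 0 and 5 counts in normal libraries, and was not tested.

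miR-1839-5p, cut from the small Cajal body RNA Scarna15, was at 144, 136 and 152 CPM in I-R replicates 1 to 3 and 173, 177 and 174 CPM in normal replicates 1 to 3. The groups did not overlap in CPM, with I-R below normal as for 38.7% of the miRBase-named miRNAs tested. As a share of library counts they overlapped, at 0.0152% to 0.0161% in I-R libraries and 0.0156% to 0.0169% in normal libraries. The log2 fold change of -0.28 ± 0.14 (SE) did not pass (adjusted p = 0.165). It stood 0.12 above the miRBase-named median. miR-664-3p, from small nucleolar RNA, was at 11.7, 13.6 and 24.2 CPM in I-R libraries and 44.7, 22.03 and 23.8 CPM in normal libraries, with overlapping groups (adjusted p = 0.161). miR-451-5p, whose hairpin is cut by Argonaute 2 and not by Dicer and which marks red cells, was at 186, 382 and 72.2 CPM in I-R libraries and 159, 49.7 and 66.7 CPM in normal libraries, with overlapping groups (log2 fold change 1.22 ± 0.67, SE; adjusted p = 0.195).

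The miRNAs whose levels ran most like miR-320-3p over the 6 libraries were miR-3559-5p, let-7d-5p and miR-146b-5p. Their log2 CPM, centred on each miRNA's mean, differed from it by a root mean square of 0.095, 0.099 and 0.1003, against a median of 0.267 over 211 candidates. For miR-484 the closest of 212 candidates were miR-674-3p, miR-195-3p and miR-340-3p at 0.735, 0.775 and 0.795, against a median of 1.14. Even these were far from miR-484, with log2 fold changes of -1.15, -1.45 and -1.28. For miR-877 the closest were miR-10a-5p, miR-191a-5p and miR-185-5p at 0.356, 0.449 and 0.451, against a median of 0.698, where its blanks count as 0 CPM. Candidates had a mean of at least 10 CPM, above those of miR-484 (6.35 CPM) and miR-877 (1.47 CPM). miRNAs at the level of these 2 were therefore not compared.

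**Figure D4:**
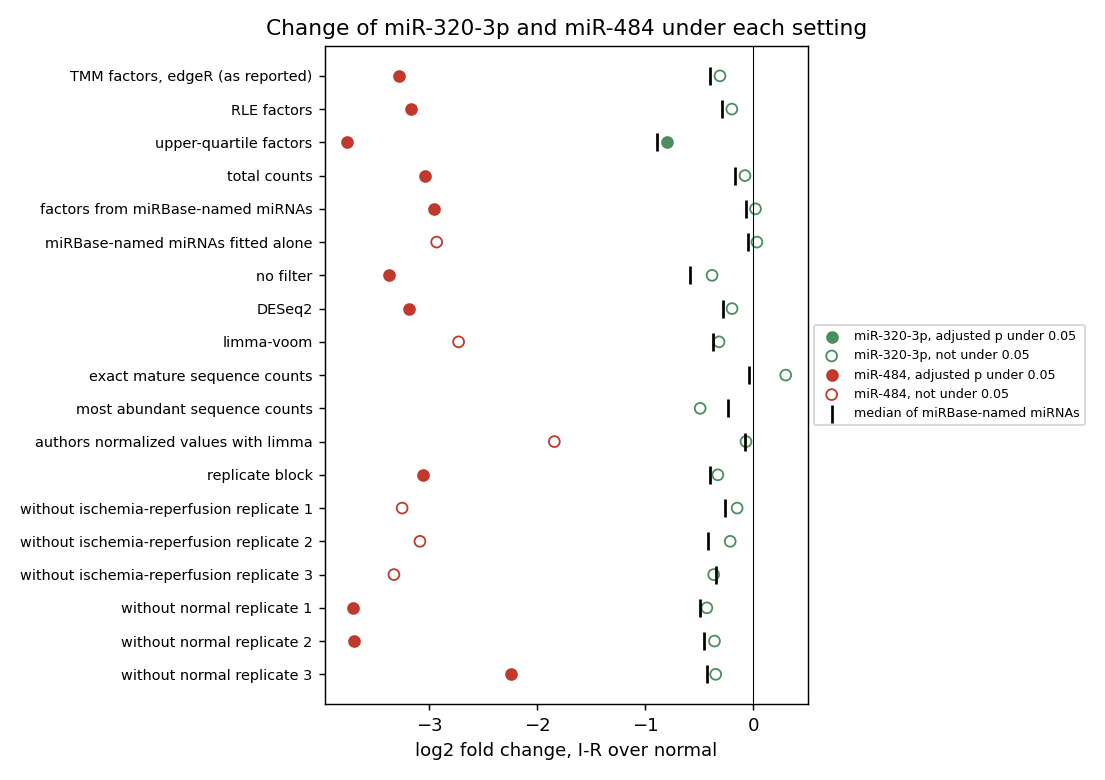
Log2 fold change (I-R over normal) of miR-320-3p (green) and miR-484 (red) under each setting, filled where the adjusted p was under 0.05, with the median of miRBase-named miRNAs as a black tick. miR-320-3p stays near the tick under each scaling, and miR-484 stays at -1.84 or below under each setting in which it was tested, filled in some and open in others.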

How the data were processed

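Per the labels' protocols, Trizol RNA was ligated to adaptors, amplified, size selected and sequenced on an Illumina NextSeq. Novoalign 2.07.11 is named in the submitters' processing notes; its role is not stated, and neither build nor miRBase release is named. Per the file headers, each row has 3 raw tag counts a library: of the exact sequence, of the row's leading sequence, and over all isoforms. Blanks were read as 0. The authors' normalized values are whole numbers treated as a score. The authors' deposited comparison gives mean scores with 10 added, a fold ratio of these, p-values and false discovery rates for 589 rows; 18 sample columns beside it were not used.

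An ID with several rows was taken by its highest-total row. All-isoform counts over all rows were tested in R 4.3.3 with edgeR 4.0.16 (filterByExpr, minimum count 10; TMM; robust quasi-likelihood F test; Benjamini-Hochberg at 0.05). miR-877 did not pass this filter, so the planned test gave no value and its counts are described instead. CPM use TMM-scaled totals. SE is the log2 fold change over the square root of F. Alternatives used DESeq2 1.42.0 and limma 3.58.1, with log2(score + 1) for the authors' values. The model was tested on simulated data. It called 20.5%, 51.4% and 95.7% of entries with a simulated log2 change of 1, 2 and 4 in either direction, and 0.234% of unchanged entries. A missing call therefore does not show that a miRNA was unchanged. Shares have 95% Wilson intervals; intervals cover counting error only, since no molecular identifiers are described. Nothing says how the hearts were handled apart from each other, so a p-value reflects only the variation among these samples. The members and lists were chosen with earlier results of these data known. Named miRNAs are the 3 members, their other arms, the list of 11, the 2 neighbours of each in rank and its 3 closest by root mean square difference of log2(CPM + 1) among those of at least 10 CPM. RefSeq sequences (GRCr8) matched miR-484 and miR-877; miR-320 was matched by gene name only.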

Additional observations from a re-analysis of the deposited data

How the results depend on the processing

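miR-484 was lower in I-R libraries under all 16 alternatives in which it was tested (log2 fold change -3.76 to -1.84), and 10 of these kept it past adjusted p 0.05. It did not pass when miRBase-named miRNAs were fitted alone (-2.93), with limma-voom (-2.73) or with the authors' normalized values (-1.84). Nor did it pass without I-R replicate 1, 2 or 3 (edgeR adjusted p = 0.0557, 0.0703 and 0.0526). Leaving out a library gave log2 fold changes of -3.70 to -2.24. It was not tested in counts of the exact or the most abundant sequence. The alternatives all draw on the same libraries, where miR-484 had 2, 2 and 4 counts in I-R replicates 1 to 3. They are thus not independent of each other, and miR-484 came over the filter through its normal libraries. miR-320-3p passed with upper-quartile factors (-0.79) and was positive with factors from the miRBase-named entries (0.021), with these fitted alone (0.035) and in exact-sequence counts (0.30); leaving out a library gave -0.43 to -0.15. For miR-877, the log2 ratio of mean CPM was -1.14, 0 in the authors' normalized values, and -1.26 to -0.55 when a library other than I-R replicate 3 was left out. Without I-R replicate 3 all its I-R counts are blank.

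The ratio of miR-320-3p to miR-484 turned to -0.52 in counts of the most abundant sequence, where 1 I-R library had a value, and ran from 1.93 to 2.99 when a library was left out. The difference for the leading form of miR-320-3p was -4.32 percentage points (3 against 3 libraries). For that of miR-877 it was -43.0, from 1 I-R library with 0 of 8 counts against 3 normal libraries. Leaving out a library gave 1.23 to 7.16 points for the exact share of miR-320-3p and -28.8 to 21.2 for that of miR-484.

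Of the other noncanonical miRNAs, 0 were called, but 2 with upper-quartile factors and 0 to 1 when a library was left out. The 45 miRBase-named miRNAs called became 148 with upper-quartile factors, 26 with total counts, with factors from miRBase-named miRNAs or with the authors' normalized values, 8 when fitted alone, 19 in exact-sequence counts, 29 in most abundant sequence counts, and 11 to 72 when a library was left out. The cause was not tested. With the replicate block, 18 were called, and miR-484 (-3.05, adjusted p = 0.0388) and miR-320-3p (-0.33, 0.253) kept their side. Same-numbered libraries of the 2 groups did not deviate together (correlations of -0.197, 0.0191 and -0.12). With 3 libraries a group this cannot show whether the numbers pair hearts, and the labels do not say.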
